A study of Mus musculus with 6 samples.

Results

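Collagens are the structural proteins of the extracellular matrix, and type I collagen is the main protein of bone. The collagen gene family was examined here in cultured osteoclasts, the multinucleated cells that resorb bone, and in the bone marrow macrophages (BMMs) from which they were grown. Members were chosen by gene name alone, as Col, a number, a and a second number, which selected 44 of the 49315 rows of the table. The family itself was selected on earlier results of this same contrast, so the levels of its members in BMMs and osteoclasts are described without a test. RNA-Seq was available for 3 libraries of WT mouse BMMs at day 0 and 3 libraries of WT osteoclasts at day 4. BMMs were grown with 10% culture supernatant of CMG14-12 cells, a line used as a source of M-CSF. For differentiation, BMMs were cultured for 4 days with 75 ng/mL RANKL and CMG14-12 supernatant at a dilution of 1/50. The labels call the libraries biological replicates but name no animal or culture, so spread and p-values refer to these libraries. No day 4 culture without RANKL was part of the comparison, and the effects of RANKL, of the M-CSF supply and of culture time cannot be told apart. These are bulk cultures, in which more cells of a type and more RNA per cell cannot be told apart either.

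A collagen molecule is a triple helix of 3 chains, each built from a repeat of glycine followed by a pair of other residues, often proline and hydroxyproline. Fibrillar collagens assemble into the ropes of bone, skin and cartilage, network collagens form the sheets of basement membranes, and other classes bind to fibrils, make beaded filaments or cross the plasma membrane. Osteoblasts and fibroblasts are the usual sources of fibrillar collagen in bone, whereas osteoclasts are known for degrading it with acid, cathepsin K and matrix metalloproteinases.

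The repeat was visible in the coding sequences of all 44 members. In the longest coding transcript of each gene, the longest uninterrupted run of glycine triplets held between 23 and 344 triplets, with a median of 58. The fibrillar genes carried the longest runs, with 338 triplets in Col1a1, 339 in Col1a2 and 344 in Col3a1, whereas the repeat of Col4a1, a network collagen, was broken into 23 runs of at most 40 triplets. Col18a1 held 17 runs of at most 30 triplets, and the complement gene C1qa, which the name rule did not select, had a longest run of 16. The stretches below, from GENCODE vM21 transcripts on GRCm38, show the repeat in a chain of an unbroken helix, in a second fibrillar chain, in a network chain and in a macrophage protein outside the family, with the glycine codon that opens each triplet in capitals. They begin at codon 97 of Col1a2, 164 of Col3a1, 43 of Col4a1 and 62 of C1qa, which lie on chromosomes 6, 1, 8 and 4, respectively.
Col1a2: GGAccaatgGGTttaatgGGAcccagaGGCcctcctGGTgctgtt
Col3a1: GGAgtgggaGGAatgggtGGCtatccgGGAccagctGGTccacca
Col4a1: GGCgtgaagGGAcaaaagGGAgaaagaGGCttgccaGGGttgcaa
C1qa: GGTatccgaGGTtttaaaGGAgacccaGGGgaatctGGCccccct
In each stretch every triplet opens with a glycine codon, while the codons between these differ from gene to gene and in Col3a1 include further glycine codons in lower case. Windows of 50 bases shared with any other gene were few: 11 of the 44 members had at least 1 such window, and among the 20 genes described individually the largest shared part was 1.67% of windows, in Col3a1.

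Collagen transcripts were more abundant in osteoclast libraries than in BMM libraries, and the make-up of the pool differed. Levels are given in TPM, which is scaled to gene length and to a total of 1000000 in each library, and means carry the SD of 3 libraries. Summed over all 44 genes, collagen TPM was 49.6, 51.9 and 51.0 in BMM replicates 1, 2 and 3 and 231, 267 and 271 in osteoclast replicates 1, 2 and 3. The means were 50.8 ± 1.15 and 256 ± 21.7 TPM, a ratio of 5.04. Without Col18a1, the sum was 16.3 ± 0.468 TPM in BMM libraries and 215 ± 21.4 TPM in osteoclasts, a ratio of 13.2. Col18a1 alone made up 67.6% to 68.3% of collagen TPM in BMM libraries and 13.8% to 17.5% in osteoclasts. The type I chains Col1a1 and Col1a2 together made up 10.9% to 11.3% in BMMs and 44.8% to 48.7% in osteoclasts. The leading collagen thus differed between the groups, a multiplexin in every BMM library and a type I chain in every osteoclast library.

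**Figure D1:**
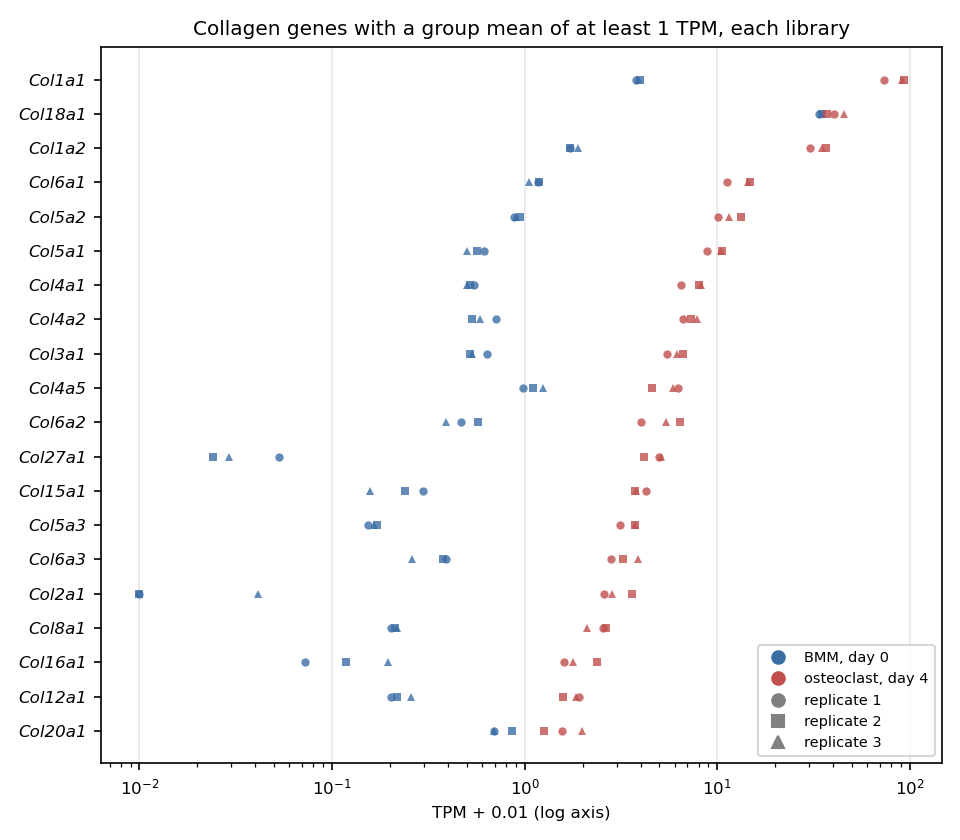
TPM + 0.01 on a log axis for the 20 collagen genes that averaged 1 TPM or more in either group, in 3 BMM libraries (blue) and 3 osteoclast libraries (red), with a marker shape for each replicate. The groups are far apart for most genes, with Col1a1 at 3.87 and 85.6 TPM on average, while the Col18a1 libraries lie close together at 33.7 to 45.6 TPM.

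Of the 44 members, 25 were higher in every osteoclast library than in every BMM library, 2 were lower, 11 overlapped and 6 were listed at 0 in all 6 libraries (Col13a1, Col22a1, Col26a1, Col6a5, Col6a6 and Col9a1). Over the 24150 genes above 0 TPM in some library, groups were fully separated with osteoclasts higher for 31.7% and with osteoclasts lower for 17.8%, and nothing is read from the members' count because the contrast was known when they were chosen. For the 38 members above 0 in some library, the median difference of mean log2(TPM + 1) was 0.41, against 0.04 over all 24150 genes above 0. For the 19 members that averaged 1 TPM or more over the 6 libraries the median was 2.08, against 0.19 over the 12325 genes that did so. Only 5 collagen genes reached a mean of 1 TPM in BMMs (Col18a1, Col1a1, Col1a2, Col6a1 and Col4a5), and 20 did in osteoclasts. Of 19 members that passed the filter of a mean of 1 TPM over the 6 libraries, all 19 were called higher by limma across all genes, against 45.3% of all tested genes called higher and 23.5% called lower. Most of these 19 passed only through the osteoclast group, and the family was chosen on this contrast. Neither their count nor the medians of the members given above therefore carry weight.

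Fibrillar collagens accounted for most of the osteoclast collagen pool. Summed over the 11 fibrillar genes, TPM was 8.81 ± 0.219 in BMMs and 159.5 ± 17.5 in osteoclasts, a ratio of 18.1. Col1a1 (ENSMUSG00000001506, chr11:94936224-94953042 in GENCODE vM21 on GRCm38, as for the genes below) encodes the α1 chain of type I collagen. Its level was 3.78, 3.96 and 3.88 TPM in the BMM libraries and 73.1, 93.0 and 90.8 TPM in the osteoclast libraries. The difference of mean log2(TPM + 1) was 4.14, the largest of the family with this pseudocount, and osteoclast replicate 1 was lower than the others. With a pseudocount of 0.1 the order turned, with 5.27 for Col27a1 and 4.81 for Col2a1, both at or near 0 in BMMs, ahead of 4.42 for Col1a1. Ranked by TPM within a library, Col1a1 stood between places 9482 and 9634 in BMMs and between places 1631 and 2055 in osteoclasts, among 18733 to 19848 genes above 0. Col1a2 (ENSMUSG00000029661, chr6:4504814-4541544) encodes the α2 chain that joins a pair of α1 chains in the type I helix. It was at 1.71, 1.71 and 1.89 TPM in BMM libraries and at 30.4, 36.8 and 34.9 TPM in osteoclasts, a log2 difference of 3.66. The ratio of Col1a1 to Col1a2 TPM was 2.19 ± 0.134 in BMMs and 2.51 ± 0.10 in osteoclasts, higher in every osteoclast library but by far less than the levels of either chain. Col3a1, the chain of type III collagen in extensible tissues, was at 0.629, 0.513 and 0.521 TPM in BMM libraries and 5.51, 6.64 and 6.13 TPM in osteoclasts. Its groups did not overlap, yet the ratio of Col1a1 to Col3a1 was 7.06 ± 0.917 in BMMs and 14.0 ± 0.761 in osteoclasts. Type III transcripts therefore differed less between the groups than type I transcripts did.

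Col1a2 and Col3a1 differed in their promoters as well. RefSeq start sites on GRCm38.p6 gave promoter windows for 35 of the 44 members and for 16 of the 20 genes averaging 1 TPM or more, the others being Col1a1, Col2a1, Col5a2 and Col12a1. Each window is 300 bases long, from 250 before to 50 after the start. Windows were searched on both strands for the TATA box letters TATAAA, for the CCAAT box, for the GC box letters GGGCGG and for the AP-1 site letters TGANTCA, and no printed match overlaps another. The Col1a2 window, chr6:4505368-4505667 (plus strand), and the Col3a1 window, chr1:45311288-45311587 (plus strand), are shown because both belong to fibrillar genes that were higher in osteoclasts, with matches on either strand in capitals.
Col1a2: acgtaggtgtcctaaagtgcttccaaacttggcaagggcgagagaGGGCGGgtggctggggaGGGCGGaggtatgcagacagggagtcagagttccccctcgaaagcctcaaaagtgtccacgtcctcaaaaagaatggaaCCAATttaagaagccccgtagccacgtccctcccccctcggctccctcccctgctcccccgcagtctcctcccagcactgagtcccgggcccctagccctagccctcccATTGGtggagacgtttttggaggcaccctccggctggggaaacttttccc
Col3a1: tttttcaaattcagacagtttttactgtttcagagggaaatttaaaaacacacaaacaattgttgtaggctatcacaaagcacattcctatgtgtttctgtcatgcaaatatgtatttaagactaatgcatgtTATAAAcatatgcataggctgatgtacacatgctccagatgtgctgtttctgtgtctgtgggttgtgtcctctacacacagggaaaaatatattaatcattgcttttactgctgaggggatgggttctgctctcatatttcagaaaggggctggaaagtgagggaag
The Col1a2 window held 2 CCAAT and 2 GGGCGG matches at 61.0% G and C, while the Col3a1 window held a single TATAAA match at 37.7% G and C and not 1 CG dinucleotide. Among all 32851 promoter windows, TATAAA was found in 13.62%, CCAAT in 37.41%, GGGCGG in 35.66% and TGANTCA in 7.81%. Among these 16 genes, TATAAA was found in 1, CCAAT in 7, GGGCGG in 11 and TGANTCA in 1 (Col6a1). The median content of G and C over the windows of these genes was 60.65%, against 52.7% over all windows. Col18a1 and Col6a2 had more than 1 window each. A gene was counted once for a motif if any of its windows matched, whereas the percentages over all promoters are per window. The matches describe letters only, and binding of any factor was not measured.

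The chains of type V collagen, which is built into type I fibrils and limits their width, were also present. Col5a1 was at 0.603, 0.557 and 0.492 TPM in BMM libraries and 8.86, 10.5 and 10.5 TPM in osteoclasts. Col5a2 was at 0.871, 0.936 and 0.897 TPM and 10.1, 13.2 and 11.5 TPM, respectively. Both were separated by several TPM, and Col5a2 held the higher level in 6 of 6 libraries. The third chain gene, Col5a3, was lower than both, at 0.144, 0.160 and 0.156 TPM in BMM libraries and 3.10, 3.74 and 3.73 TPM in osteoclasts. The ratio of Col5a1 to Col5a2 was 0.612 ± 0.0737 in BMMs and 0.860 ± 0.0571 in osteoclasts. Col2a1 and Col27a1 are fibrillar genes best known from cartilage. Col2a1 was listed at 0 in BMM replicates 1 and 2, at 0.0312 TPM in replicate 3, and at 2.56, 3.61 and 2.81 TPM in osteoclasts. Col27a1 was at 0.0431, 0.0140 and 0.0191 TPM in BMM libraries and 4.97, 4.13 and 5.09 TPM in osteoclasts. Both were near the bottom of the scale in BMMs, where no ratio is given because the depth behind a TPM value is unknown. The 8 chondrocyte markers were mixed, with 1 higher and 3 lower in osteoclasts without overlap and Cnmd listed at 0 throughout. Of all genes above 0 in some library, 31.7% were higher and 17.8% lower without overlap. Sox9, a transcription factor of chondrocytes named after its values were seen, was at 0.0170, 0.0147 and 0 TPM in BMM libraries and 0.283, 0.217 and 0.218 TPM in osteoclasts. The list summed to 3.53 to 3.90 TPM in BMM libraries and 1.27 to 1.33 TPM in osteoclasts, most of it Matn1, a cartilage matrix protein at 2.55 ± 0.211 and 0.254 ± 0.142 TPM, and its part in the levels of Col2a1 and Col27a1 was not tested. The remaining fibrillar genes, Col11a1, Col11a2 and Col24a1, overlapped between the groups and stayed under 1.14 TPM in every library.

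Basement membrane collagens formed a second group with higher levels at day 4. The 6 type IV genes summed to 2.24 ± 0.0992 TPM in BMM libraries and 20.6 ± 1.35 TPM in osteoclasts, a ratio of 9.23. Col4a1 (ENSMUSG00000031502, chr8:11198423-11312826) and Col4a2 (ENSMUSG00000031503, chr8:11312805-11449287) encode the chains of the common type IV network. Col4a1 was at 0.536, 0.512 and 0.493 TPM in BMM libraries and 6.46, 8.06 and 8.21 TPM in osteoclasts. Col4a2 was at 0.700, 0.522 and 0.574 TPM in BMM libraries and 6.65, 7.33 and 7.81 TPM in osteoclasts. The pair stayed close, with a ratio of 0.868 ± 0.107 in BMMs and 1.04 ± 0.0645 in osteoclasts. The genes lie head to head, and their annotated first exons overlap by 22 bases on opposite strands, and whether the counting used strand is not given in the sources used here. Their promoter windows, chr8:11312777-11313076 (minus strand) and chr8:11312555-11312854 (plus strand), overlap by 78 bases and are shown for that reason, each 5′ to 3′ along its own gene, with CCAAT and GGGCGG letters of either strand in capitals.
Col4a1: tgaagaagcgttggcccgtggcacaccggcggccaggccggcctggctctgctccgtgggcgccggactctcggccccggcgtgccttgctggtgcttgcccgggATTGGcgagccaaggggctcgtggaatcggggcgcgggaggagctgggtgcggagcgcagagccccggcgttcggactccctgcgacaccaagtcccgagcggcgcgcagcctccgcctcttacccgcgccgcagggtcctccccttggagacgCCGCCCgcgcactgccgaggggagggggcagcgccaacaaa
Col4a2: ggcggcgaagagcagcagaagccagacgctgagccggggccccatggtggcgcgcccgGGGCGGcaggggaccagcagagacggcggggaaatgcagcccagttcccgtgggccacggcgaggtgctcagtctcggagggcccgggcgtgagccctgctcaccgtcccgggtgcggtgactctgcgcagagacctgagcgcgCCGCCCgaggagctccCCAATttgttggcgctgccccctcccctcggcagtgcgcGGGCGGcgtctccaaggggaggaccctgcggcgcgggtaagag
The Col4a1 window held 1 CCAAT and 1 GGGCGG match at 74.0% G and C, and the Col4a2 window held 1 and 3 at 73.7%. Col4a5 (chrX:141475385-141689234), a chain of specialised basement membranes such as that of the kidney glomerulus, was at 0.971, 1.09 and 1.23 TPM in BMM libraries and 6.23, 4.57 and 5.89 TPM in osteoclasts. It also lies head to head with a family member, Col4a6, at a distance of 1308 bases, but this pair did not share a level. Col4a6 was at 0.00880, 0.0152 and 0.00780 TPM in BMM libraries and 0.201, 0.173 and 0.234 TPM in osteoclasts, so the osteoclast ratio of Col4a5 to Col4a6 was 27.5 ± 3.05. The third head-to-head pair, Col4a3 and Col4a4, 71 bases apart, overlapped between the groups. Thus 3 pairs with the same arrangement showed a shared, an unequal and no clear difference.

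Type VI collagen, whose 3 classical chains assemble into beaded microfilaments around cells, also exceeded 20 TPM in osteoclasts on average. The 6 genes of this class summed to 1.93 ± 0.230 TPM in BMM libraries and 22.2 ± 3.41 TPM in osteoclasts, a ratio of 11.5. Col6a1 was at 1.17, 1.18 and 1.04 TPM in BMM libraries and 11.3, 14.7 and 14.5 TPM in osteoclasts. Its neighbour on chromosome 10, Col6a2, was at 0.455, 0.561 and 0.382 TPM and 4.00, 6.43 and 5.44 TPM, respectively. Col6a3, which lies on chromosome 1, was at 0.381, 0.365 and 0.250 TPM and 2.81, 3.22 and 3.87 TPM. No group overlapped with the other for any of these chains. Relative to Col6a2, Col6a1 stood at 2.46 ± 0.325 in BMMs and 2.59 ± 0.274 in osteoclasts, a difference within the spread of the libraries. The alternative chains Col6a5 and Col6a6 were listed at 0, and Col6a4 stayed at or below 0.166 TPM.

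**Figure D2:**
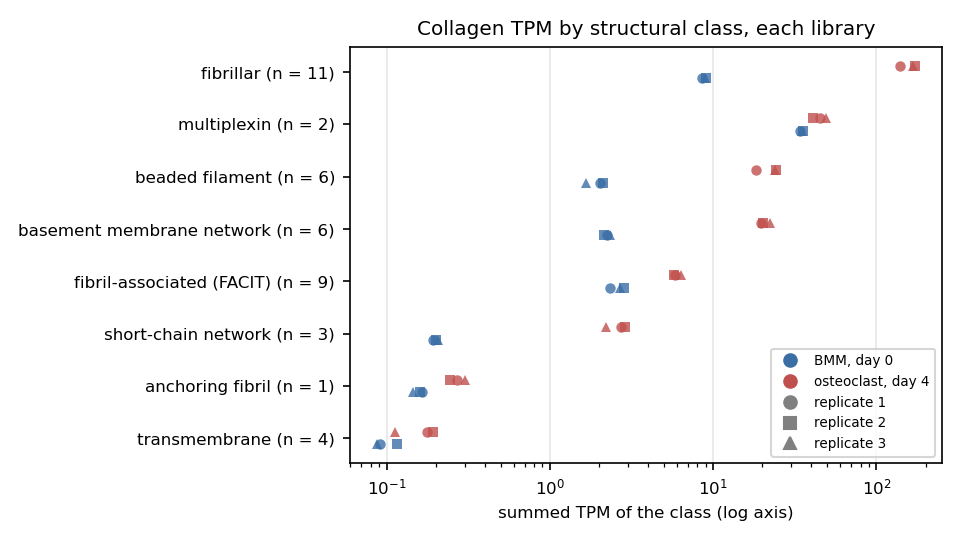
Summed TPM of each structural class of collagen on a log axis, in 3 BMM libraries (blue) and 3 osteoclast libraries (red), with n giving the number of genes in the class. Fibrillar collagens show the highest osteoclast sums at 139.6 to 172 TPM, while multiplexins differ least among the classes above 1 TPM, from 34.8 to 44.9 TPM on average.

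Col18a1 (ENSMUSG00000001435, chr10:77052178-77166548) set the multiplexins apart from the other classes. It encodes a collagen of vessel and epithelial basement membranes whose end fragment is endostatin. Its level was 33.7, 35.1 and 34.8 TPM in BMM libraries and 40.6, 36.9 and 45.6 TPM in osteoclasts, a log2 difference of 0.24. The groups did not overlap on the deposited scale, but they did after median-ratio scaling, where Col18a1 was at 36.2, 38.2 and 36.9 in BMMs and 36.2, 34.8 and 43.0 in osteoclasts and the log2 difference was 0.03. That scaling removed a shift of 0.19 in the median log2 fold change of all tested genes, so Col18a1 moved about as much as the typical gene. The other multiplexin, Col15a1, was at 0.287, 0.229 and 0.147 TPM in BMM libraries and 4.26, 3.75 and 3.79 TPM in osteoclasts, and its groups stayed apart under both scalings. Col15a1 therefore resembled the network collagens in direction, at a far lower level than Col18a1. The upstream RefSeq promoter window of Col18a1, chr10:77166481-77166780 (minus strand), is shown because Col18a1 was the leading collagen gene of BMMs and the runner-up in osteoclasts.
Col18a1: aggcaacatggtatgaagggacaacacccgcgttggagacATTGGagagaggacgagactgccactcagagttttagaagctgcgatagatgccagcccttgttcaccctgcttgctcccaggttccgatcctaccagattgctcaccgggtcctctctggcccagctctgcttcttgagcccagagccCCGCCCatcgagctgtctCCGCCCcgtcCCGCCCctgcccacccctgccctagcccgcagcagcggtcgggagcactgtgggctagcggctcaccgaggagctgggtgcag
This window held 1 CCAAT and 3 GGGCGG matches, in capitals on either strand, at 63.3% G and C. The window of a second Col18a1 start, chr10:77113656-77113955 (minus strand), held none of the motifs, and the gene-level table does not say which start was used.

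Fibril-associated collagens, which decorate the surface of fibrils, were low and mixed in direction. Their 9 genes summed to 2.63 ± 0.269 TPM in BMM libraries and 5.98 ± 0.324 TPM in osteoclasts, a ratio of 2.27. Col12a1, which binds type I fibrils, was at 0.194, 0.207 and 0.246 TPM in BMM libraries and 1.90, 1.57 and 1.83 TPM in osteoclasts. Col16a1 was at 0.0624, 0.108 and 0.185 TPM and 1.59, 2.37 and 1.76 TPM, respectively. Both lay below 0.25 TPM in BMM libraries and above 1.5 TPM in osteoclasts. Col20a1 was at 0.686, 0.853 and 0.684 TPM and 1.56, 1.24 and 1.96 TPM, the smallest difference after Col18a1 among the 20 genes. Col20a1 shares 79 exonic bases on the same strand with another annotated gene, BX649560.1, so its level is uncertain. Col14a1, a collagen of tendon and skin fibrils, went the other way, at 0.610, 0.527 and 0.587 TPM in BMM libraries and 0.106, 0.120 and 0.0197 TPM in osteoclasts. Col19a1 was also lower, at 0.469, 0.608 and 0.462 TPM and 0.349, 0.235 and 0.412 TPM. These were the only members whose groups were separated with BMMs higher, and neither reached 1 TPM in any library. The short-chain gene Col8a1, which forms hexagonal networks in the eye and in vessel walls, was at 0.192, 0.202 and 0.207 TPM in BMM libraries and 2.54, 2.63 and 2.09 TPM in osteoclasts. Col10a1, the collagen of hypertrophic cartilage, was listed at 0 in every BMM library and was at 0.197, 0.230 and 0.111 TPM in osteoclasts. Col7a1, the anchoring fibril gene of skin, was at 0.164, 0.159 and 0.145 TPM and 0.270, 0.245 and 0.303 TPM. The last of these were separated between groups but lay well under 1 TPM. Close to the limit of 1 TPM, Col20a1 was just inside with an osteoclast mean of 1.59 TPM, and Col11a2 was just outside with a BMM mean of 0.958 TPM.

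Among the osteoclast libraries, most collagens shared their lowest library. Of the 20 genes, 13 were lowest in osteoclast replicate 1, 6 in replicate 2 and 1 in replicate 3. Replicate 1 was the lowest library for only 19.2% of the 12346 genes averaging 1 TPM or more in osteoclasts, and replicate 2 was for 43.2%. The 13 genes comprised the type I, III and V chains, Col2a1, Col4a1, Col4a2, the 3 type VI chains and Col16a1. Col1a1 in replicate 1 stood at 85.4% of its osteoclast mean and Col6a2 at 75.6%. The genes that were instead lowest in replicate 2 were Col18a1, Col4a5, Col27a1, Col15a1, Col12a1 and Col20a1, which included Col18a1 at 90.0% and Col4a5 at 82.1% of their means. Smooth muscle and pericyte markers showed the first order: Acta2, Tagln and Cnn1 were lowest in replicate 1 and highest in replicate 2, with Acta2 at 80.5% and 123% of its mean, while Cspg4 was lowest in replicate 2 at 73.1%. Of 9 osteoclast markers, 1 was lowest in replicate 1. For the partner lists described below, genes averaging 1 TPM or more in osteoclasts were counted. Replicate 1 was lowest for 5 of 8 cleavage and crosslinking genes, 4 of 8 fibril partners and 4 of 7 other collagen-like genes. It was lowest for 5 of 19 modification genes, 2 of 9 basement membrane partners, 2 of 7 breakdown genes and 1 of 7 receptors. Genes of 1 library share their source, so these counts describe the libraries and carry no test.

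**Figure D3:**
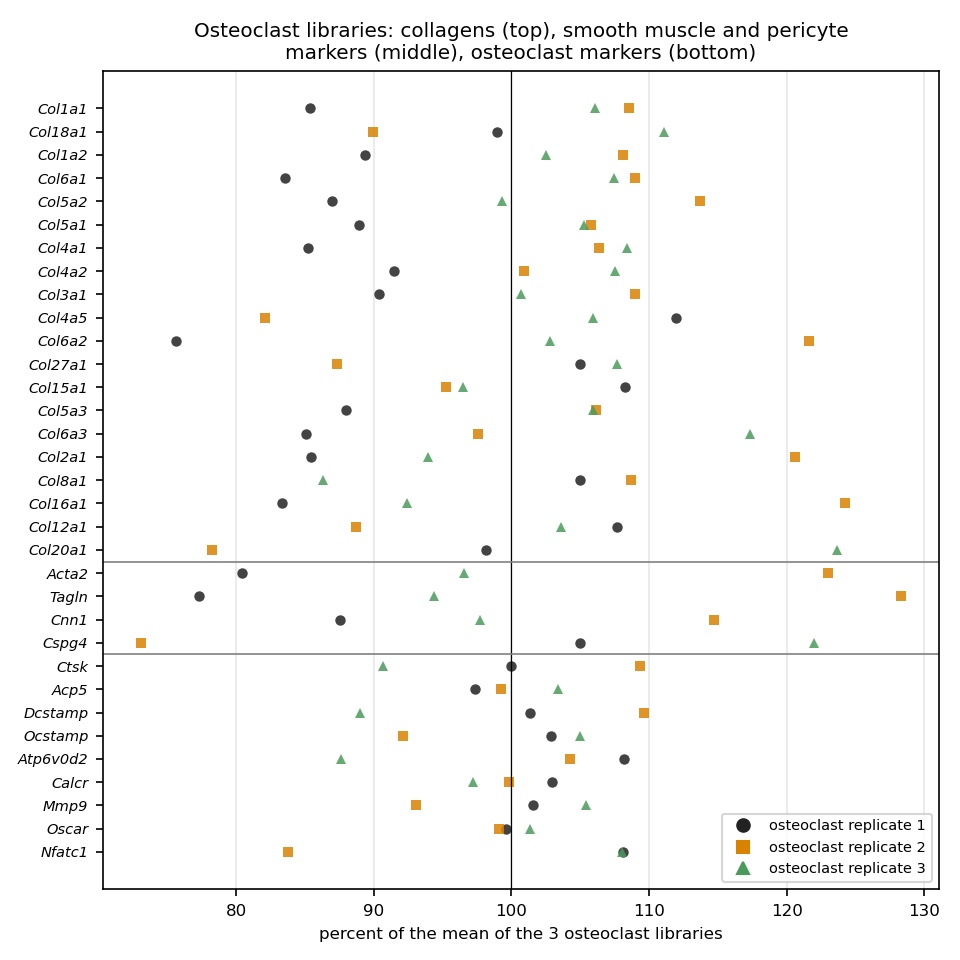
TPM in each osteoclast library as a percent of the mean of the 3 libraries, for 20 collagen genes, 4 smooth muscle and pericyte markers and 9 osteoclast markers. Replicate 1 (black circles) lies left of 100% for most fibrillar, type IV and type VI genes and for Acta2, Tagln and Cnn1, whereas Col18a1, Col4a5, Col27a1 and Cspg4 are lowest in replicate 2 (orange squares).

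Marker lists were used to check the labels and to record other cell types. Osteoclast markers summed to 328 to 349 TPM in BMM libraries and 38066 to 38690 TPM in osteoclasts. Of these, 9 of 9 were called higher, against 45.3% of all tested genes. Ocstamp, Calcr and Oscar passed the filter only through their osteoclast level. Macrophage markers summed to 76012 to 78502 TPM and 28996 to 30133 TPM, respectively, and neutrophil granule markers to 2983 to 3251 TPM and 14.4 to 26.0 TPM. The highest gene of these lists was Acp5 for osteoclasts (53.8 ± 1.55 and 13052 ± 405 TPM), Lyz2 for macrophages (71494 ± 1189.6 and 24753 ± 737 TPM) and S100a9 for neutrophils (1726 ± 61.3 and 10.9 ± 3.65 TPM). Summed markers of stromal, mural and bone-forming cells were higher in every osteoclast library than in every BMM library, but not every marker on these lists was. Fibroblast and stromal markers summed to 0.988 to 1.22 TPM in BMM libraries and 5.55 to 7.06 TPM in osteoclasts, with 7 of 11 higher without overlap and Tcf21 listed at 0. Only Pdgfrb, a receptor of mesenchymal cells, passed the filter, at 0.300 ± 0.0988 and 3.48 ± 0.412 TPM (limma log2 fold change 1.78 ± 0.12, adjusted p = 4.4e-06). Pdgfrb passed only through its osteoclast level, so its direction was fixed by the filter. Smooth muscle and pericyte markers summed to 19.5 to 20.2 TPM in BMM libraries and 145.6 to 222 TPM in osteoclasts, and 5 of 7 were higher without overlap. Most of that sum was Acta2, smooth muscle actin, at 17.3, 17.4 and 17.3 TPM in BMM libraries and 116, 177 and 139 TPM in osteoclasts (limma log2 fold change 2.97 ± 0.14, adjusted p = 4.6e-07). All 4 tested markers of this list rose, while Myh11, Rgs5 and Des stayed below 0.1 TPM in every library. Cnn1 and Cspg4 had BMM means under 1 TPM and passed the filter only through their osteoclast level, which fixed their direction. Osteoblast markers summed to 1.63 to 1.85 TPM and 3.22 to 3.73 TPM, with 6 of 10 higher without overlap and Dmp1 listed at 0. Beside the counts of these lists, 31.7% of all genes above 0 were higher and 17.8% lower without overlap. Several counted genes lay near 0 TPM, such as Lepr, Des and Phex. Runx2, the highest osteoblast marker, did not pass the test at 0.900 ± 0.0340 and 1.18 ± 0.236 TPM (limma adjusted p = 0.2). Endothelial markers summed to 6.81 to 7.22 TPM and 5.52 to 6.92 TPM, with Vwf highest at 4.46 ± 0.112 and 4.84 ± 0.862 TPM and Cldn5 listed at 0, and adipocyte markers, led by Cidec, summed to at most 0.189 TPM with Lep listed at 0. The part of stromal or mural cells in the collagen levels was not tested.

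**Figure D4:**
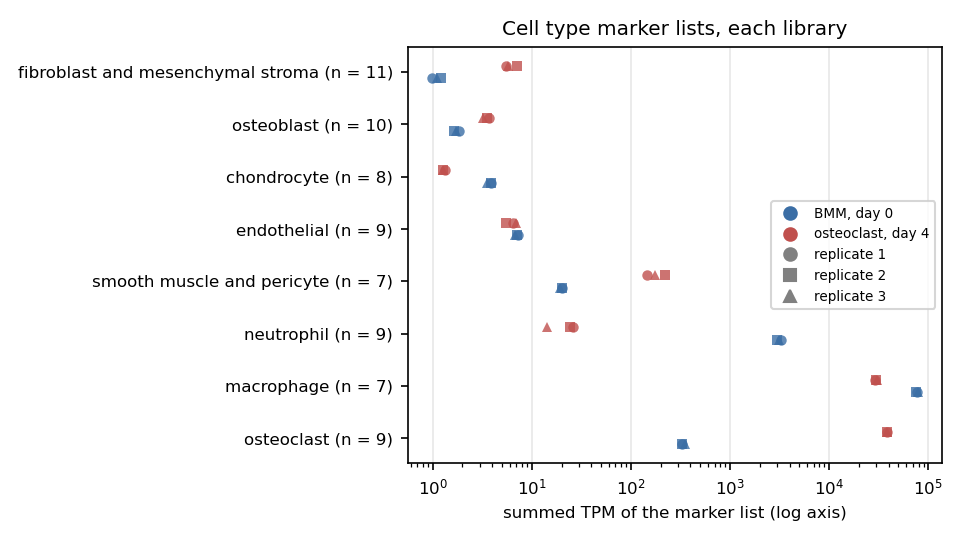
Summed TPM of cell type marker lists on a log axis in 3 BMM libraries (blue) and 3 osteoclast libraries (red), with n giving the number of genes listed. Osteoclast, smooth muscle and pericyte, fibroblast and osteoblast sums lie higher at day 4, the smooth muscle sum at 145.6 to 222 TPM, while neutrophil and macrophage sums lie lower.

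Genes that make, process and bind collagen were then followed in lists outside the family, tested with limma on log2(TPM + 1) across all 12325 genes, with log2 fold changes given ± standard error. Of the genes that cleave and crosslink procollagen, 8 of 13 passed the filter and all 8 rose, with a median log2 fold change of 2.03. Over all tested genes, 45.3% were called higher and 23.5% lower. Lox, a lysyl oxidase that starts crosslinking, rose from 0.785 ± 0.0877 to 15.7 ± 1.26 TPM (log2 fold change 3.23 ± 0.10, adjusted p = 5.8e-08). Its relative Loxl1 rose from 0.748 ± 0.241 to 9.86 ± 1.23 TPM (adjusted p = 9.0e-07). The smallest changes were in Pcolce, an enhancer of propeptide removal (log2 fold change 1.45 ± 0.14, adjusted p = 3.5e-05), and Loxl3 (log2 fold change 0.57 ± 0.07, adjusted p = 1.9e-04). Of this list, Loxl3 alone had a BMM mean of at least 1 TPM. The other tested genes passed the filter only through their osteoclast level, so their direction was fixed by the filter. Over the whole list, 11 of 13 were higher in osteoclasts without overlap, against 31.7% of all genes above 0, and Tll2 and Adamts3 were listed at 0.

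The enzymes and chaperones that act on collagen inside the cell were mixed in direction. Of 21 genes, 17 were tested, of which 10 rose, 2 fell and 5 did not pass, against 45.3% of all tested genes higher and 23.5% lower. Their median log2 fold change of 0.19 equalled that of all genes. After median-ratio scaling, 7 rose and 5 fell, and the median was -0.02. The largest changes were in Serpinh1 (HSP47), the chaperone dedicated to procollagen, which rose from 4.25 ± 0.469 to 53.7 ± 8.63 TPM (log2 fold change 3.37 ± 0.13, adjusted p = 1.7e-07), and in Fkbp10, a prolyl isomerase that assists type I collagen (log2 fold change 2.40 ± 0.16, adjusted p = 4.0e-06). Fkbp10 passed the filter only through its osteoclast level, which fixed its direction. The prolyl hydroxylase subunit P4ha2 fell from 6.70 ± 0.0450 to 4.15 ± 0.466 TPM (adjusted p = 6.3e-04). The lysyl hydroxylase Plod1 fell from 121 ± 1.24 to 87.7 ± 10.8 TPM (adjusted p = 0.0014). General components were already abundant in BMMs, with P4hb, the hydroxylase subunit that also serves as a disulfide isomerase, at 638 ± 3.03 TPM in BMM libraries and 729 ± 7.15 TPM in osteoclasts (P4hb was chosen after its values were seen).

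**Figure D5:**
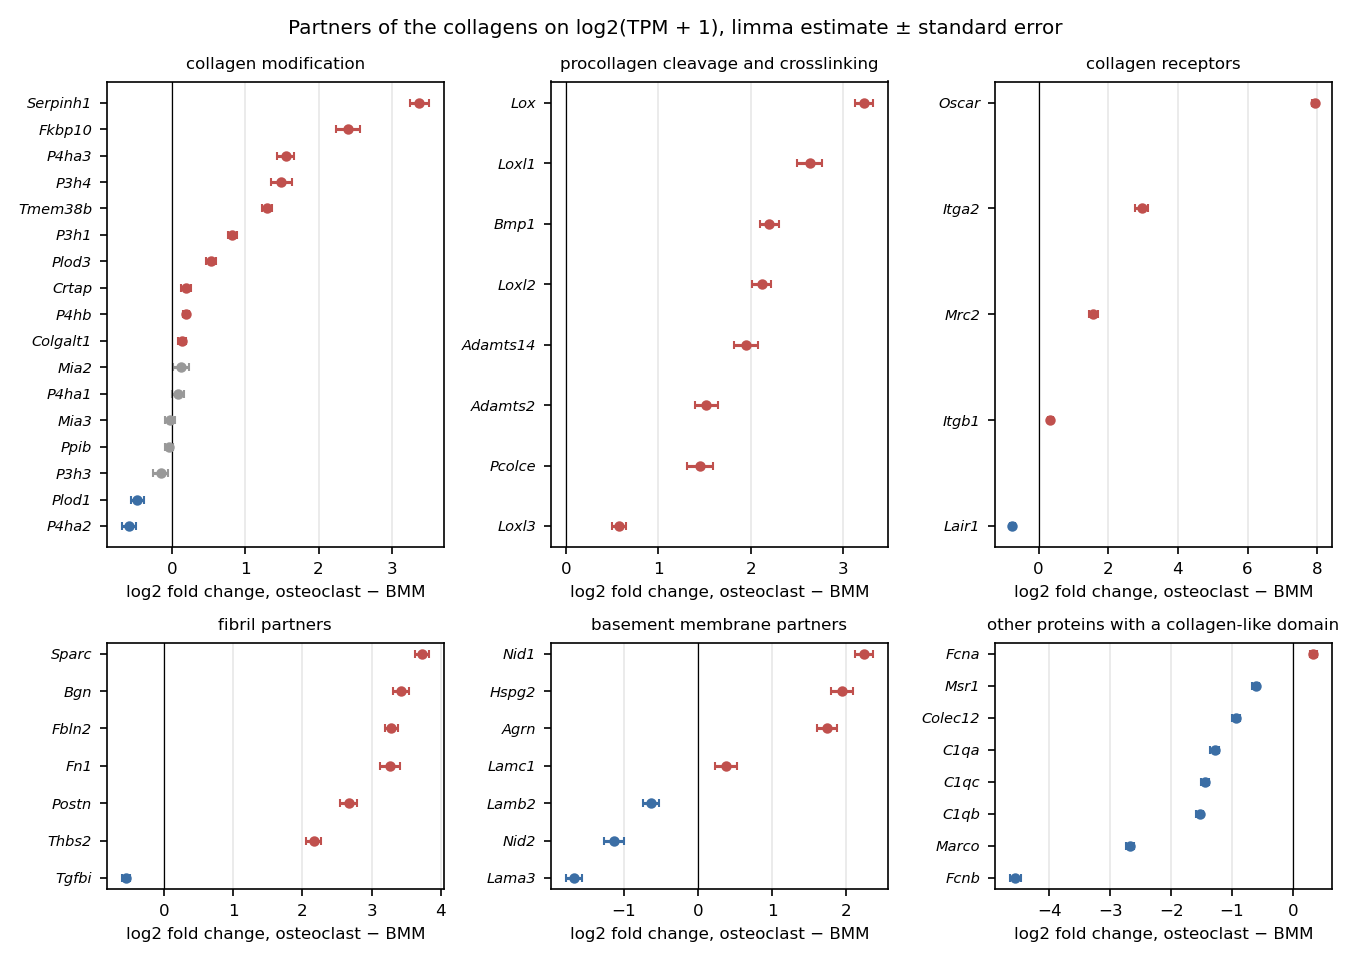
limma log2 fold change (osteoclast minus BMM, log2(TPM + 1) scale) ± standard error for tested genes of 6 lists of collagen partners, in red where higher, blue where lower and grey where the adjusted p did not pass 0.05. All 8 cleavage and crosslinking genes lie right of 0, collagen modification genes centre near 0.19, and 7 of 8 other proteins with a collagen-like domain lie left of 0.

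Of 16 fibril partners, 7 were tested, 6 rose and 1 fell, with a median log2 fold change of 3.27, against 45.3% of all tested genes higher and 23.5% lower. Of the 6 that rose, 3 had a BMM mean under 1 TPM and passed the filter only through their osteoclast level, and without a filter the median was 0.46. Sparc (osteonectin), a collagen-binding glycoprotein of bone, rose from 3.78 ± 0.318 to 62.2 ± 7.50 TPM (log2 fold change 3.72 ± 0.10, adjusted p = 3.8e-08). Biglycan (Bgn), a small proteoglycan, rose from 1.47 ± 0.178 to 25.6 ± 3.62 TPM (adjusted p = 1.0e-07). Thrombospondin 2 (Thbs2) rose by 2.16 ± 0.11 on the log2 scale (adjusted p = 6.3e-07). Tgfbi, a secreted protein that binds collagen and was abundant in BMMs, fell from 324 ± 2.37 to 221 ± 13.1 TPM (adjusted p = 4.0e-05). Lum was listed at 0, and over the whole list 12 of 16 were higher and 1 lower without overlap, against 31.7% and 17.8% of all genes above 0. Basement membrane partners were divided, with 5 of 8 tested genes higher and 3 lower, and 3 of the 5 passed the filter only through their osteoclast level. Nid1, a linker of laminin and type IV collagen, rose from 0.326 ± 0.00938 to 5.28 ± 0.777 TPM (adjusted p = 1.0e-06), whereas its paralog Nid2 fell from 8.24 ± 0.303 to 3.26 ± 0.817 TPM (adjusted p = 1.3e-04). The laminin chain gene Lama3 fell from 3.89 ± 0.0566 to 0.543 ± 0.137 TPM (adjusted p = 3.6e-06), but it passed the filter only through its BMM level. The part of stromal or smooth muscle cells in the levels of these lists was not tested.

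Of 11 collagen receptors, 5 were tested, 4 rose and 1 fell, against 45.3% and 23.5% of all tested genes. Oscar, Itga2 and Mrc2 had BMM means under 1 TPM and passed the filter only through their osteoclast level, so their direction was fixed by the filter. Over the whole list, 7 of 11 were higher and 3 lower without overlap, against 31.7% and 17.8% of all genes above 0. Oscar, a costimulatory receptor of osteoclasts that binds triple-helical collagen, was at 0.128 ± 0.0273 TPM in BMM libraries and 273 ± 3.26 TPM in osteoclasts (log2 fold change 7.92 ± 0.06, adjusted p = 1.1e-10). Itga2, the integrin chain of a collagen receptor, rose by 2.96 ± 0.18 on the log2 scale (adjusted p = 2.1e-06), and Mrc2, an uptake receptor for collagen, rose by 1.57 ± 0.13 on the log2 scale (adjusted p = 1.4e-05). Itgb1, the partner chain of Itga2, rose by 0.34 ± 0.07 on the log2 scale (adjusted p = 0.0036), but the limma call was lost after median-ratio scaling (0.13, adjusted p = 0.16) and after rescaling without the 20 highest genes (0.15, adjusted p = 0.084). The inhibitory receptor Lair1 fell from 34.9 ± 1.29 to 20.4 ± 1.28 TPM (adjusted p = 2.3e-05). Among proteases of collagen breakdown, the leading genes far exceeded the collagens in osteoclasts. Ctsk (cathepsin K), the main collagen-degrading protease of these cells, rose from 25.9 ± 1.70 to 12643 ± 1181 TPM (log2 fold change 8.88 ± 0.08, adjusted p = 1.8e-10), and Mmp9 rose from 28.6 ± 0.723 to 10888 ± 689 TPM (adjusted p = 5.5e-11). The interstitial collagenases Mmp13 and Mmp8 fell, from 15.8 ± 1.05 to 2.60 ± 0.175 TPM and from 33.5 ± 1.16 to 3.93 ± 1.05 TPM, respectively (limma adjusted p = 2.0e-07 and 7.1e-07). Mmp14, another protease of this list chosen after its values were seen, rose from 5.51 ± 0.725 to 249 ± 3.64 TPM (limma adjusted p = 3.3e-09). In all, 4 of 7 tested genes of this list rose, 2 fell and Pepd did not pass, against 45.3% higher and 23.5% lower over all tested genes. The median log2 fold change of 1.90 became -0.30 when Ctsk and Mmp9 were removed with the 20 highest genes.

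Of 21 genes whose proteins carry a collagen-like domain but lie outside the family, 8 were tested, 7 fell and 1 rose, with a median log2 fold change of -1.36, against 23.5% of all tested genes lower and 45.3% higher. Over the whole list 7 of 21 were lower and 4 higher without overlap, against 17.8% and 31.7% of all genes above 0. Without a filter the median was -0.03. Fcnb, a ficolin of myeloid cells, fell from 23.0 ± 0.882 to 0.0149 ± 0.0258 TPM and was listed at 0 in 2 osteoclast libraries (log2 fold change -4.56 ± 0.09, adjusted p = 5.9e-09). It passed the filter only through its BMM level, so its direction was fixed by the filter. The scavenger receptor Marco fell from 398 ± 12.9 to 61.6 ± 5.78 TPM (adjusted p = 4.0e-08), and the related Msr1 fell from 167 ± 1.33 to 109 ± 5.77 TPM (adjusted p = 2.1e-05). C1qa, whose repeat is printed above and which was chosen after its values were seen, fell from 2309.5 ± 10.4 to 949 ± 94.2 TPM (adjusted p = 1.2e-06). Fcna rose from 68.6 ± 0.291 to 87.1 ± 3.61 TPM (adjusted p = 5.9e-04), a limma call that was lost after median-ratio scaling (0.13, adjusted p = 0.12). The C1q genes, Marco and Msr1 were at levels above those of any collagen in BMMs. They fell, while most collagens averaging 1 TPM or more were higher in osteoclasts. The collagens were chosen with this contrast known, and 15 of those 20 had a BMM mean under 1 TPM. No conclusion about the glycine repeat is therefore drawn from the directions.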

How the data were processed

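RNA was from 3 BMM and 3 osteoclast libraries of WT mice, sequenced as paired reads of 150 bases. Per the labels' processing notes, the authors used bcl2fastq 2.17, Trimmomatic 0.36 and STAR 2.5.2b on mm10, and the paper names DESeq2 for their own test on counts. The deposited values are TPM per gene, which the authors scaled to a total of 1000000 per library. Which program assigned reads to genes, whether it used strand and how it handled multimapped reads was not given in the sources used here. Because TPM keeps no depth, the depth per library is unknown, no counting interval is given and a 0 is reported as listed at 0.

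Every gene averaging 1 TPM or more across all 6 libraries entered a limma 3.58.1 fit of log2(TPM + 1), run in R 4.3.3 (empirical Bayes with intensity trend, two-sided, Benjamini-Hochberg over 12325 genes, threshold 0.05), checked on simulated data. limma replaced a count test because TPM values are not counts. Fold changes on this scale understate changes of low genes. Tables were handled in Python 3.11.15 with pandas 2.3.3. Gene IDs of 48970 of 49315 rows matched GENCODE vM21 on GRCm38, and promoter windows came from RefSeq on GRCm38.p6.

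Members and lists were chosen with earlier results of these data known. Collagen genes with a group mean of at least 1 TPM were given in each library, the others by range and count. From each partner list, the 2 largest and 2 smallest fold changes were named, or all genes where 5 or fewer were tested; 1 gene that this rule selects is not reported here, though it stays in the counts. From each marker list the gene with the highest mean was named, with others as counts, and any other gene was named after its values were seen. Alternatives were a pseudocount of 0.1, no filter or one of 5 TPM, median-ratio scaling, rescaling without the 20 highest genes, no intensity trend, a block for replicate number and each library left out.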

Additional observations from a re-analysis of the deposited data

How the results depend on the processing

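No collagen log2 difference and no named partner gene changed sign under any alternative run, but the median of collagen breakdown went from 1.90 to -0.30 without the 20 highest genes and that of collagen modification from 0.19 to -0.02 with median-ratio scaling. With median-ratio scaling, 4149 genes were called higher and 4131 lower, and after rescaling without the 20 highest genes 4263 and 3849, against 5585 and 2901 on the deposited scale. Under these scalings the log2 ratio of summed collagen TPM went from 2.33 to 2.12 and 2.15, that without Col18a1 from 3.72 to 3.52 and 3.54, and 5 collagen modification genes were called lower under either. Median-ratio scaling left 0 other collagen-like genes higher, and removing the 20 highest genes, Ctsk and Mmp9 among them, left 2 breakdown genes higher. Without a filter, 7 receptors, 11 fibril partners, 8 basement membrane partners and 2 other collagen-like genes were higher. With a filter of 5 TPM, fewer genes were tested, and 3 cleavage and crosslinking genes, 2 receptors and 2 basement membrane partners were higher and 1 basement membrane partner was lower. Of 180 collagen log2 differences under alternatives, 139 moved by less than the replicate spread and 41 by more (19 with the pseudocount of 0.1, 13 and 9 with the scalings). Leaving out 1 library gave 25 to 28 collagen genes higher and 2 to 3 lower without overlap. Fewer libraries make such separation easier for any gene, and the share over all genes was not computed for these settings. Nothing is therefore read from these counts. Deviations of same-numbered libraries from their group means gave r of -0.049, -0.003 and -0.068, against -0.068 to 0.104 over all 9 pairs. The labels name no animal, so whether replicate numbers pair the samples is unknown. With a replicate block, 5502 genes were higher and 2821 lower, and 8 collagen modification genes were higher in place of 10. TPM gives no depth, so differences among genes near 0 could not be bounded.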
